A study of Mus musculus with 768 samples.

Results

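NKR-P1 receptors are C-type lectin-like proteins of natural killer (NK) cells, and several of them bind members of the Clr family, which are C-type lectin-like proteins encoded beside them in the NK gene complex. The genes of this receptor and ligand system are described here across single NK cells from a mouse tumor. They comprise the 4 receptor genes Klrb1c, Klrb1a, Klrb1b and Klrb1f and the 2 ligand genes Clec2d and Clec2i, 6 of the 24490 gene entries measured. The genes were taken by their symbols, with earlier results of these data known. They were read in every well in which 1000 to 3500 genes were above 0, counting genes above 0 in at least 3 wells.

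Klrb1c encodes NKR-P1C, an activating receptor that carries the NK1.1 antigen of C57BL/6 mice. Klrb1a and Klrb1f encode the activating receptors NKR-P1A and NKR-P1F. Klrb1b encodes NKR-P1B, an inhibitory receptor that binds Clr-b, the product of Clec2d. NKR-P1F binds Clr-g, the product of Clec2i. Loss of Clr-b from a target cell relieves the inhibition of NK cells through NKR-P1B, so this pair works as a form of missing-self recognition that does not use MHC class I. The activating members signal with the adaptor FcRγ, encoded by Fcer1g, whereas an immunoreceptor tyrosine-based inhibitory motif (ITIM) in the cytoplasmic tail of NKR-P1B recruits the phosphatase SHP-1, encoded by Ptpn6.

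Tumor-infiltrating NK cells were sorted singly from MTAP1A tumors, a fibrosarcoma line with low MHC class I that was made from a Tap1-deficient mouse, and each cell was sequenced by SMART-Seq2, which reads full-length transcripts without molecular identifiers. Cells came from C57BL/6 hosts that were either WT or PD-1-/- (labelled PDCD-1(PD-1)-/-), a deletion carried in every cell of the mouse and not only in NK cells. The tumors of 3 mice were pooled per genotype and sorted on 1 plate each, as viable cells positive for NK1.1 and negative for markers that include CD3 and GR1. Each genotype is therefore a single pooled sample, the effects of genotype and of plate cannot be told apart, and no test between genotypes was possible, so shares are given with exact binomial 95% intervals and differences of shares with Newcombe 95% intervals, both of which cover counting error only.

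Of the 768 wells, 726 were kept, 360 of them labelled WT and the rest PD-1-/-. The reads recovered from the steps of the RPKM values (reads scaled for transcript length and library size) had medians of 284336 and 305243 per kept cell, and the median number of genes was 2264.5 and 2262.5. The 8 NK-like markers were Ncr1, Klrb1c, Klrk1, Klre1, Eomes, Tyrobp, Fcer1g and Gzma. Klrb1c among them is itself a member and encodes the antigen used in the sort. All 8 were found, with shares from 55.2% for Eomes to 100% for Fcer1g. No B-like, neutrophil-like or fibrosarcoma-like marker was found in more than 2.78%, and no myeloid-like marker in more than 6.39%, of the cells of either genotype. Pdcd1, the targeted gene, was above 0 in 9 WT cells (2.5%) and 47 PD-1-/- cells (12.8%), with mean RPKM of 14.4 and 13.9. A gene-level value does not separate the deleted exons from the rest of the transcript, so it does not check the labels, and WT and PD-1-/- below mean cells of the plates so labelled.

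The 6 genes lie within 577.3 kb of chromosome 6 (GRCm38 coordinates from RefSeq). In the order of the chromosome they are Klrb1a at chr6:128609227-128622934, Klrb1c at chr6:128778485-128788641, Klrb1b at chr6:128813706-128826315, Clec2i at chr6:128887587-128898168, Klrb1f at chr6:129045837-129059724 and Clec2d at chr6:129180615-129186535. Klrb1a, Klrb1c and Klrb1b are on the minus strand and the other three on the plus strand. The deposited values are per gene and carry no coordinates.

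Stretches near the starts of the receptor coding sequences show how Klrb1b differs from the other 3. They were taken from GENCODE vM21 transcripts, from the last in-frame start codon before the CxCP codons to 4 codons past them. The annotated coding sequence begins 48 codons earlier in Klrb1c and 6 codons earlier in Klrb1a, and these codons were not searched. In Klrb1b and Klrb1f the stretch begins at the annotated start. Capitals mark the codons of the CxCP site, known to bind the kinase Lck, and in Klrb1b also those of the ITIM.
Klrb1b: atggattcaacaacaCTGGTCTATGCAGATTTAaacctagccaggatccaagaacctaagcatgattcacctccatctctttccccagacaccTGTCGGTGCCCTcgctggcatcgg
Klrb1c: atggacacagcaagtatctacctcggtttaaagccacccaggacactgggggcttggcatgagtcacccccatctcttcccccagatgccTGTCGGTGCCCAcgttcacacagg
Klrb1a: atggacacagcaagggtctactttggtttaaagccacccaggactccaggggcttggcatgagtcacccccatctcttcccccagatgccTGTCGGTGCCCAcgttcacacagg
Klrb1f: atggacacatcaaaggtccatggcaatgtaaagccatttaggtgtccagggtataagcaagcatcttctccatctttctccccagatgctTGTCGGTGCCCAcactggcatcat
All 4 stretches hold the CxCP codons, and Klrb1b alone holds an ITIM, at codons 6 to 11, when the ITIM is spelled with isoleucine, valine or leucine in its first place. With serine also allowed there, Klrb1c matched as well.

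How alike the genes are bears on how far their reads can be separated. Over aligned bases the whole coding sequences of Klrb1c and Klrb1a were 92.5% identical, those of Klrb1c and Klrb1b 86.2%, and those of Klrb1a and Klrb1b 84.6%, whereas Klrb1f was 71.6% to 71.99% identical to the other 3. Clec2d and Clec2i were 86.5% identical. Of all stretches of 50 bases in the transcript, 11.02% of those of Klrb1a, 6.15% of Klrb1b, 5.75% of Klrb1c, 7.88% of Clec2i, 1.98% of Clec2d and none of Klrb1f also occur in a transcript of another measured gene. Reads from shared stretches could be counted for the wrong member, so low values of Klrb1a, Klrb1b and Klrb1c in a cell with high values of another of these are uncertain. Clec2d and Clec2i share stretches with each other, so low values of either beside high values of the other are also uncertain.

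Klrb1c was the most abundant and most widely found member. NK1.1, its product, was the antigen used to sort the cells, so its presence is a property of the sort. Its RPKM ran from 0 to 3307 in WT cells with a median of 705, and from 0 to 2931 in the PD-1-/- cells with a median of 775. The transcript was above 0 in 96.1% of the WT (93.6 to 97.9%) and 96.99% of the PD-1-/- cells (94.7 to 98.5%), and mean RPKM was 831 and 875. The ranges of both genotypes overlapped over nearly their whole length.

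The cells without Klrb1c were few and differed between the plates. Among the 14 WT cells, 9 had a transcript of Cd3d, Cd3e or Cd3g, 8 had Ncr1 (encoding the NK receptor NKp46) and 6 lay in plate rows A and B, and their median depth was 78266 reads against 286689 in the other WT cells. Among the 11 PD-1-/- cells, 3 had a CD3 transcript, 8 had Ncr1 and 2 lay in rows A and B, and the median depth was 317549 against 304941 reads. In rows A and B of the WT plate Klrb1c was found in 84.2% of cells (68.7 to 93.98%), with a mean RPKM of 469, whereas over rows C to P of that plate the values were 97.5% and 874. Klrb1f was found in 57.9% and Klrb1b in 44.7% of the 38 WT cells in rows A and B, both below their shares over the whole plate, so the Klrb1b comparison below is also given without these rows.

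Klrb1a, encoding an activating receptor close in sequence to NKR-P1C, was found in about as many cells as not. The highest RPKM was 1767 in WT and 2087 in PD-1-/- cells, the lowest 0 in each, and the median over all cells 22.45 and 2.18. It was above 0 in 54.7% of the WT (49.4 to 59.9%) and 50.3% of the PD-1-/- cells (45.03 to 55.5%). Among cells with the transcript the median was 241.1 RPKM in WT and 263.3 RPKM in PD-1-/-, and only 12 and 11 cells lay between 0 and 10 RPKM, so most cells had either no Klrb1a read or a clear level.

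Klrb1f, encoding the activating receptor for Clr-g, was the most widely found receptor after Klrb1c in WT cells, whereas in PD-1-/- cells its interval overlapped that of Klrb1b. RPKM ran from 0 to 2133 with a median of 270 in WT cells, and from 0 to 2430 with a median of 291.9 in PD-1-/- cells. It was above 0 in 73.3% of the WT (68.4 to 77.8%) and 69.4% of the PD-1-/- cells (64.4 to 74.1%). Among cells with the transcript the median was 388 RPKM in WT and 524 RPKM in PD-1-/-, and the ranges between their lower and upper quartiles overlapped, at 224.7 to 621 and 262.3 to 797.

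Klrb1b, the inhibitory receptor for Clr-b, was the member whose share of cells differed most between the genotypes. RPKM ran from 0 to 2831 with a median of 19.2 in WT cells, and from 0 to 3265 with a median of 156.96 in PD-1-/- cells. The transcript was above 0 in 53.6% of the WT cells (48.3 to 58.9%) and 65.3% of the PD-1-/- ones (60.2 to 70.2%). The intervals did not overlap, and the difference was 11.7 percentage points (4.55 to 18.7). The median among cells with the transcript was 351.8 RPKM in WT and 453 RPKM in PD-1-/-, and mean RPKM over all cells was 291.3 and 423.

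The ligand transcripts were far scarcer than those of the receptors. Clec2i was above 0 in 35.3% of the WT (30.3 to 40.5%) and 32.2% of the PD-1-/- cells (27.5 to 37.3%), with highest values of 612 and 841 RPKM and medians among cells with the transcript of 104.8 and 137.2 RPKM. Clec2d was above 0 in 10.8% of the WT (7.82 to 14.5%) and 13.9% of the PD-1-/- cells (10.6 to 17.9%), with highest values of 434 and 275.5 RPKM and medians of 37.5 and 38.9 RPKM. The depth behind a Clec2d value was low, a median of 15 and 16 recovered reads in the cells that had it, so a cell at 0 cannot be told from a cell with little Clec2d transcript at this depth.

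**Figure D1:**
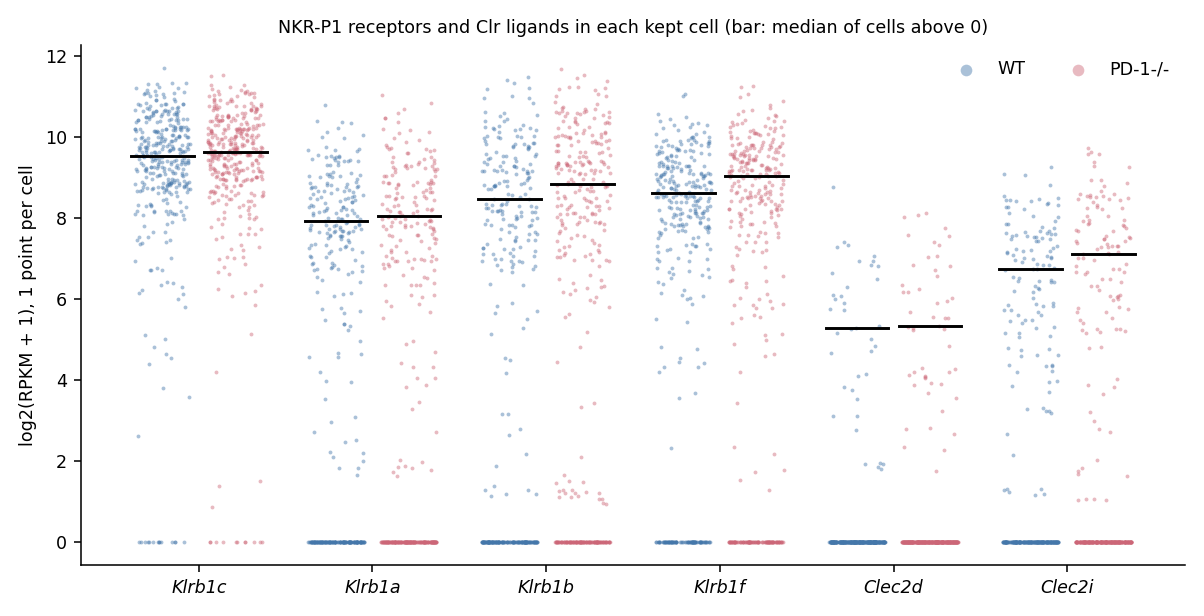
RPKM of the 6 members in each kept cell, as log2(RPKM + 1), with WT cells in blue and PD-1-/- cells in red; black bars are the medians of cells above 0. Klrb1c is above 0 in nearly all cells with medians of 741 and 786 RPKM, Klrb1a, Klrb1b and Klrb1f split into cells at 0 and cells with medians of 241.1 to 524 RPKM, and Clec2d and Clec2i are at 0 in most cells.

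Mean RPKM is per transcript length, so the levels of the members can be ordered. The order in WT cells was Klrb1c (831 RPKM), Klrb1f (344.6), Klrb1b (291.3), Klrb1a (178.1), Clec2i (46.8) and Clec2d (6.94). In PD-1-/- cells Klrb1c (875 RPKM) was followed by Klrb1b (423), Klrb1f (404), Klrb1a (187.5), Clec2i (60.5) and Clec2d (9.61). Klrb1f and Klrb1b were neighbors whose order was not stable, since Klrb1f had the higher mean in 12 of 16 plate rows of the WT plate and in 5 of 16 of the PD-1-/- plate. Klrb1b had a higher mean than Klrb1a in 14 of 16 WT rows and 15 of 16 PD-1-/- rows. Klrb1c exceeded Klrb1f, Klrb1a exceeded Clec2i, and Clec2i exceeded Clec2d, in 16 of 16 rows of each plate. Among all 24490 entries ordered by mean RPKM over all kept cells, Klrb1c ranked 66, Klrb1a 453 with Klrb1f and Klrb1b between these, Clec2i 1887 and Clec2d 6718.

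As shares of the summed mean RPKM of the NKR-P1 genes, Klrb1c made up 50.2% in WT and 46.1% in PD-1-/- cells, Klrb1f 20.8% and 21.3%, Klrb1b 17.6% and 22.3%, and Klrb1a 10.8% and 9.87%. Klrb1, encoding NKR-P1G, made up 0.63% and 0.467%, and was above 0 in 4.17% of the WT and 4.64% of the PD-1-/- cells. The pseudogene entry Klrb1-ps1 was above 0 in 8 WT and 5 PD-1-/- cells, never above 9.54 RPKM. Of the other Clr genes, Clec2e was at 0 in all cells. By a floor of 3 cells this allows a share of cells with a read of up to 0.833% in WT and 0.82% in PD-1-/- cells. The exact upper limits were 1.02% and 1.003%. Clec2f, Clec2g, Clec2h and Clec2l were each above 0 in at most 3 cells of a genotype. Klrb1d, Clec2j and Clec2m had no entry under these symbols among the genes measured. Clec2i and Clec2d together made up nearly all Clr signal, at 84.1% and 12.5% in WT cells and 82.6% and 13.1% in PD-1-/- cells.

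The study compared WT and PD-1-/- NK cells of the tumor to learn how the loss of PD-1 alters their expression profile. None of the 6 members had a mean RPKM 2-fold higher or lower in PD-1-/- cells. Of the 12030 genes whose mean reached 1 RPKM in either genotype, 4.71% were at least 2-fold higher and 7.34% at least 2-fold lower, with a median log2 ratio of -0.03. On the scale of log2(mean RPKM + 1), PD-1-/- over WT, the values were 0.54 for Klrb1b, 0.42 for Clec2d, 0.36 for Clec2i, 0.23 for Klrb1f, and 0.07 for both Klrb1c and Klrb1a. All 6 were above 0, but for Clec2d and Klrb1c the sign depended on the rows used, with -0.07 for Clec2d over rows I to P and 0.83 over rows A to H, and -0.01 for Klrb1c without rows A and B.

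By the share of cells, Klrb1b was the member of 6 whose intervals were apart and higher in PD-1-/-, a call that 0.565% of the 12030 genes met, and no member was lower, which 0.59% of genes met. Klrb1b is also among the genes that the study listed from these same cells, so this is no independent evidence of a difference. The differences of the other members were 3.10 points for Clec2d (-1.72 to 7.93), 0.883 for Klrb1c (-1.89 to 3.74), -3.04 for Clec2i (-9.87 to 3.83), -3.93 for Klrb1f (-10.5 to 2.64) and -4.45 for Klrb1a (-11.6 to 2.80), and each interval spans 0.

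The Klrb1b difference was also computed in parts of the plates and of the cells. It was 13.01 points in rows A to H (2.83 to 22.8), 10.4 in rows I to P (0.435 to 20.2), 9.83 without rows A and B (2.24 to 17.3) and 11.7 without cells with CD3 transcripts (3.96 to 19.3). Row by row, the PD-1-/- share was the higher in 11 of 16 plate rows, with differences from -6.82 to 44.2 points. Some of the PD-1-/- cells had only a trace of the transcript, with 21 cells between 0 and 10 RPKM against 12 in WT, and with 10 RPKM or more as the limit the shares were 50.3% and 59.6%, a difference of 9.29 points (2.05 to 16.4). With every cell thinned to 100000 recovered reads, which left out 31 WT and 14 PD-1-/- cells of lower depth, they were 53.2% and 62.2%, a difference of 9.02 points (1.60 to 16.3). For Klrb1f the direction depended on the rows, at 2.15 points in rows A to H (-7.37 to 11.6) and -9.89 in rows I to P (-18.7 to -0.89).

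**Figure D2:**
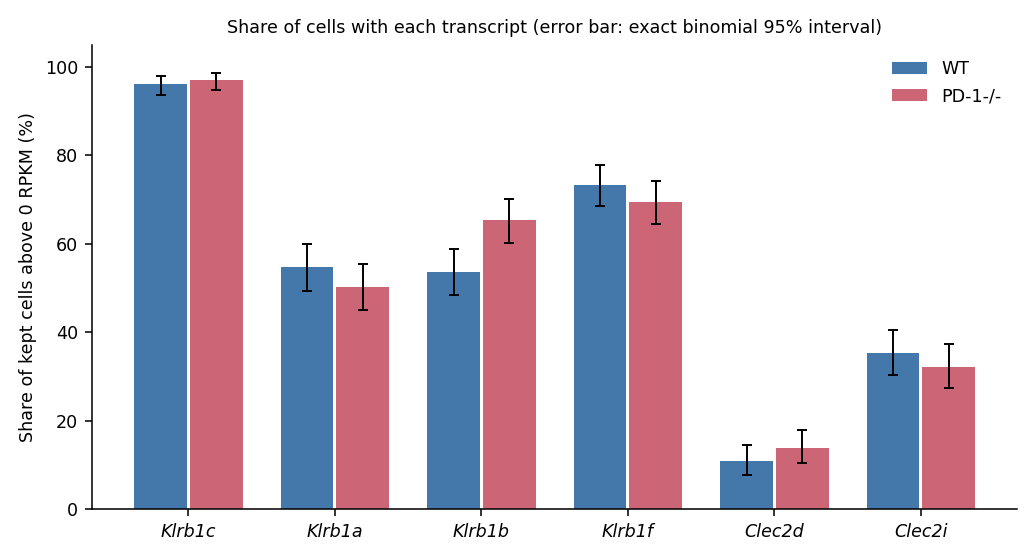
Share of kept cells above 0 RPKM for each member, in percent, for WT (blue) and PD-1-/- (red), with exact binomial 95% intervals as error bars. The intervals of Klrb1b, 48.3 to 58.9% and 60.2 to 70.2%, are apart, and those of the other 5 members overlap.

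The receptors were combined in many ways in single cells. All 4 receptor transcripts were found in 26.4% of the WT (21.9 to 31.3%) and 24.04% of the PD-1-/- cells (19.8 to 28.8%), and 3 of the 4 in 36.9% and 42.4%. Cells with 2 receptors made up 26.4% and 25.7%, and cells with 1 made up 8.61% and 7.38%. Only 6 WT and 2 PD-1-/- cells had none, and the 6 WT cells had a median of 1274 genes. The mean number of receptor transcripts was 2.78 in WT and 2.82 in PD-1-/- cells.

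The commonest set in each genotype was all 4 receptors, followed by Klrb1c with Klrb1b and Klrb1f but no Klrb1a, which made up 16.7% of the WT (12.97 to 20.9%) and 23.2% of the PD-1-/- cells (18.99 to 27.9%). Klrb1c with Klrb1a and Klrb1f but no Klrb1b followed in 54 WT cells (11.5 to 19.1%) and 41 PD-1-/- cells (8.16 to 14.9%). Klrb1c with Klrb1b alone was found in 4.72% of the WT (2.77 to 7.45%) and 9.02% of the PD-1-/- cells (6.29 to 12.4%). Each of these pairs of intervals overlaps, which does not show that the shares are equal, and intervals of their differences were not computed. The product of the separate shares is what unlinked transcripts would give if every cell were read equally well. It was 20.7% in WT and 22.1% in PD-1-/- for all 4 receptors, and 17.1% and 21.9% for the set without Klrb1a. Cells with more receptors also held more genes, with medians from 1274 for none to 2387 for all 4 in WT. In PD-1-/- cells these medians ran from 1854.5 to 2383, and the part of this in the shares was not tested.

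**Figure D3:**
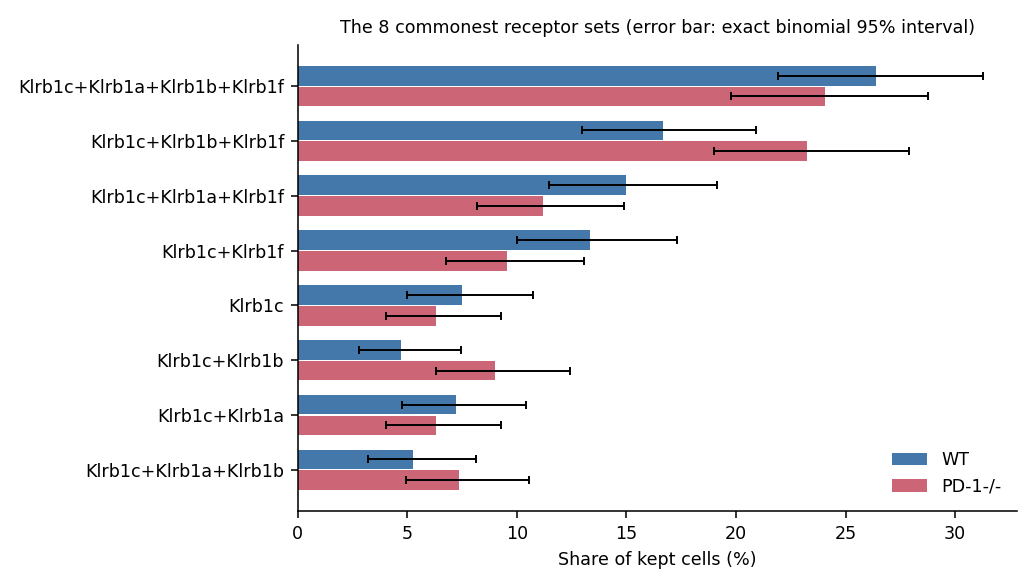
Share of kept cells, in percent, with each of the 8 commonest sets of receptor transcripts, for WT (blue) and PD-1-/- (red), with exact binomial 95% intervals. The full set leads in both genotypes at 26.4% and 24.04%, and the sets with Klrb1b and without Klrb1a are longer in red, with overlapping intervals.

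Co-detection asked whether a cell with a receptor was more or less likely to hold a ligand of the family. In cells with Klrb1b, Clec2d, which encodes its ligand, was found in 12.4% of WT cells against 8.98% of those without Klrb1b, a difference of 3.45 points (-3.15 to 9.87). In PD-1-/- cells the shares were 12.1% and 17.3%, a difference of -5.19 points (-13.5 to 2.15). For Klrb1f and Clec2i, the other binding pair, the shares were 35.98% and 33.3% in WT cells, a difference of 2.65 points (-8.71 to 13.1), and 35.04% and 25.9% in PD-1-/- cells, a difference of 9.15 points (-1.30 to 18.6). Across all 8 receptor and ligand pairs, the interval spanned 0 in 8 of 8 pairs in each genotype, as deposited and after thinning. How many other genes had intervals that spanned 0 was not counted. Pairs with Klrb1c could hardly be clear of 0, since only 14 WT and 11 PD-1-/- cells lacked it. For Clec2d beside Klrb1c the intervals ran from -20.7 to 10.8 in WT and from -11.7 to 18.4 points in PD-1-/- cells. Some of the pair differences depended on the cells and limits used. Without cells with CD3 transcripts, Clec2d was found less often beside Klrb1b in PD-1-/- cells, by -10.3 points (-21.2 to -1.07), the 1 of the 8 pairs then clear of 0 in that genotype, whereas at 10 RPKM or more the difference was -0.236 points. In WT cells the same pair was clear of 0 at 10 RPKM or more, in the other direction, at 6.02 points (0.152 to 12.1). Over all wells, Klrb1f with Clec2i in PD-1-/- cells gave 10.8 points (0.589 to 20.03). Receptor and ligand transcripts of a binding pair did occur in the same cell, with Klrb1b and Clec2d in 6.67% of the WT and 7.92% of the PD-1-/- cells and Klrb1f and Clec2i in 26.4% and 24.3%.

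Among the 6 receptor pairs, Klrb1b and Klrb1f were the pair found together more often in each genotype. Klrb1f was above 0 in 80.8% of the WT cells with Klrb1b and 64.7% of those without, a difference of 16.2 points (6.97 to 25.1), and in 73.2% and 62.2% of the PD-1-/- cells, a difference of 11.02 points (1.08 to 21.1). After thinning the differences were 13.5 points (4.18 to 22.7) and 13.07 points (3.05 to 23.1). Without cells with CD3 transcripts they were 19.1 points (8.65 to 29.4) in WT and 9.08 points in PD-1-/- cells, where the interval then spanned 0 (-2.19 to 21.2). Klrb1f was the 1 member of the other 5 with a share at least 10 points higher beside Klrb1b in both genotypes, which held for 0.257% of the 8575 other genes found in at least 5% of cells, and no member was 10 points lower, which held for 0.0816%. Turned round, Klrb1b was the 1 member that was 10 points higher beside Klrb1f in both genotypes, but so were 2.67% of genes, and 0.0117% were 10 points lower. Cells with Klrb1f held more genes than cells without, with medians of 2332 and 2071 in WT and 2361 and 2027 in PD-1-/- cells, and the part of this in the pairing beyond the thinning was not tested.

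The other receptor pairs gave less. In WT cells Klrb1a, Klrb1b and Klrb1f were each found more often beside Klrb1c, by 34.6 points (7.96 to 49.4), 40.9 points (14.7 to 52.4) and 24.3 points (0.574 to 47.9), but these rest on the 14 cells without Klrb1c. After thinning 7 of these cells were left, and the differences were 24.8 points (-11.1 to 45.9), 25.2 points (-10.8 to 46.2) and 18.6 points (-8.85 to 51.03). In PD-1-/- cells the same 3 intervals spanned 0. For Klrb1a with Klrb1b the differences were 9.40 points (-0.932 to 19.5) in WT and -1.26 points (-10.9 to 8.43) in PD-1-/- cells, and for Klrb1a with Klrb1f 8.45 points (-0.725 to 17.6) and 4.71 points (-4.71 to 14.02).

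**Figure D4:**
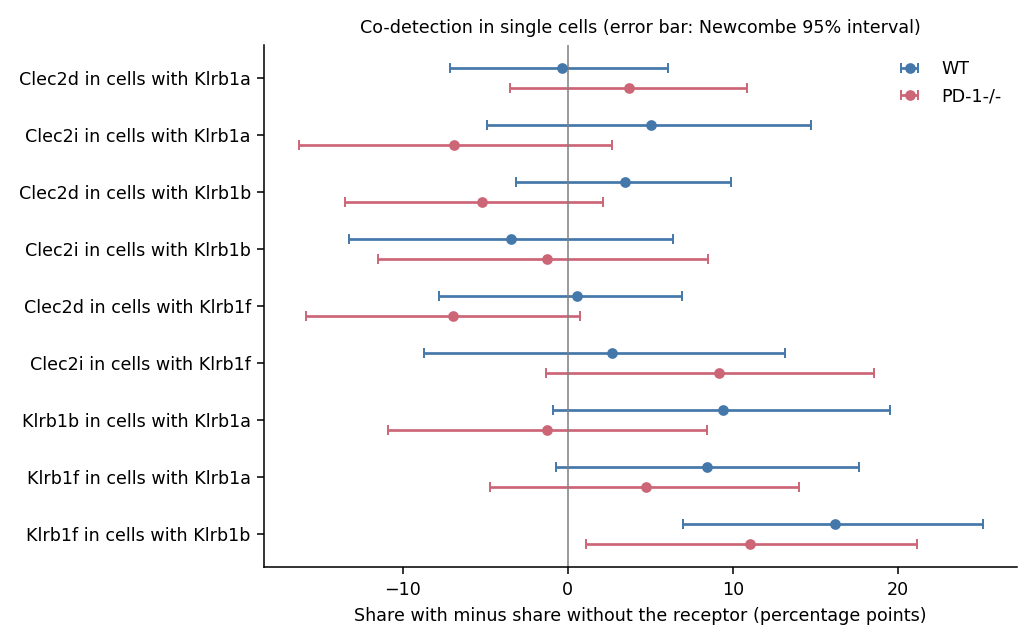
Difference in the share of cells with the named transcript between cells with and without the named receptor, in percentage points, for WT (blue) and PD-1-/- (red), with Newcombe 95% intervals; pairs with Klrb1c are left out because only 14 and 11 cells lacked it. Klrb1f beside Klrb1b, at 16.2 and 11.02 points, is the pair whose interval is clear of 0 in both genotypes over all kept cells.

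Some of the sorted cells held transcripts of the CD3 chains, which belong to the T cell receptor complex and are also made by some innate lymphoid cells. A read of Cd3d, Cd3e or Cd3g was found in 65 WT and 83 PD-1-/- cells. Klrb1b was far less often found in these cells. In WT it was above 0 in 26.2% of the cells with CD3 transcripts and 59.7% of those without, a difference of -33.5 points (-44.1 to -20.4), with mean RPKM of 119.05 and 329.3. In PD-1-/- it was above 0 in 44.6% of the cells with CD3 transcripts and 71.4% of those without, a difference of -26.8 points (-38.2 to -14.8), with mean RPKM of 265.2 and 470. Of 8573 genes found in at least 5% of cells, 1 gene in WT and 0 in PD-1-/- cells had a larger drop than Klrb1b.

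Klrb1b was the 1 member of 6 at least 10 points lower with CD3 transcripts in both genotypes, which held for 0.385% of those genes, and no member was 10 points higher in both, which held for 0.63%. Klrb1f differed by -16.5 points (-28.3 to -5.01) in PD-1-/- cells and -1.25 points (-14.0 to 9.54) in WT cells. Clec2i differed in the other direction in WT cells, with 49.2% against 32.2%, or 17.03 points (4.03 to 29.9), and by 3.49 points (-7.45 to 15.4) in PD-1-/- cells. Klrb1c was found in 86.2% of the WT cells with CD3 transcripts against 98.3% without, and in 96.4% against 97.2% in PD-1-/- cells. Klrb1a and Clec2d had intervals that spanned 0 in each genotype, although after thinning that of Klrb1a in PD-1-/- cells was clear of 0, at -16.1 points (-28.0 to -2.83).

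Depth was close between these cells, with median reads of 272762 and 286848 in WT and 302474 and 305352 in PD-1-/- cells. After thinning, the differences of Klrb1b were -32.6 points (-43.9 to -18.3) and -31.5 points (-43.2 to -18.4). Of the 7 other T-like markers, 6 were found in the WT and 7 in the PD-1-/- cells with CD3 transcripts, with Bcl11b the most frequent at 16.9% and 14.5%, Cd8a at 9.23% and 7.23%, Cd4 at 1.54% and 2.41% and Themis at 0 and 1.20%. Their summed mean RPKM was 86.8 and 88.2 in these cells against 3.15 and 1.98 in the others. Ncr1 was found in 73.8% and 74.7% of the cells with CD3 transcripts against 94.6% and 96.8% of the others, and Tyrobp in 89.2% and 80.7% against 100% and 98.2%. The summed mean RPKM of the 8 NK-like markers was 12076 and 16144 in the cells with CD3 transcripts against 20829 and 21208 in the others. Gzma weighs most in this sum. Over all kept cells its mean was 8657 and 10293 RPKM, of sums of 19249 and 20060. Most thus carried Ncr1 and Tyrobp, less often than the other cells did. The NK-like list did not fall as a whole, since Fcer1g in each genotype and Klre1 in PD-1-/- cells did not. The part that another cell type has in the Klrb1b result was not tested.

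**Figure D5:**
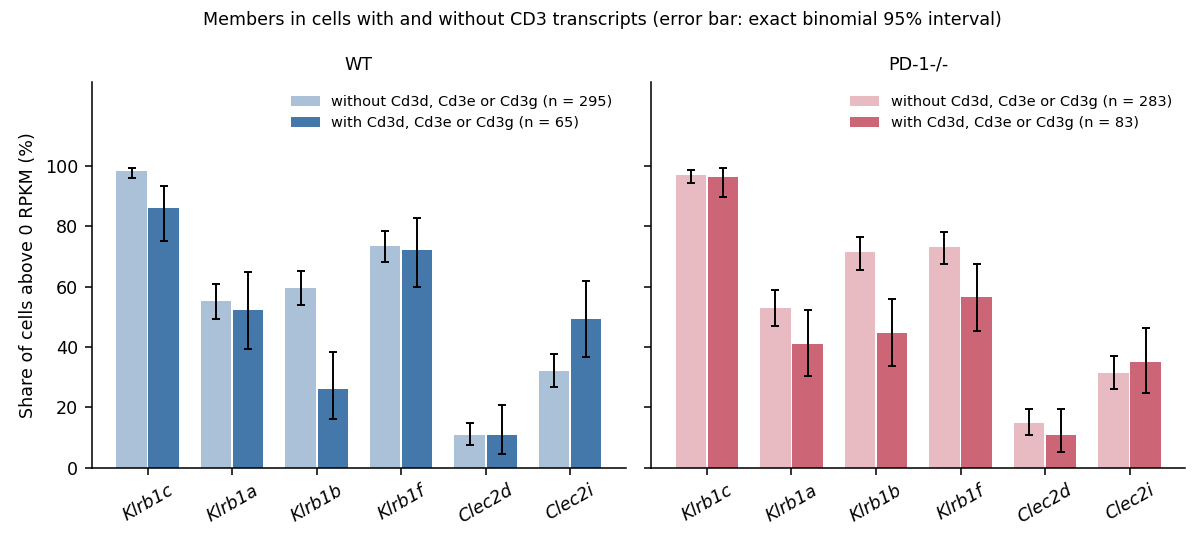
Share of cells above 0 RPKM for each member, in percent, in cells with a read of Cd3d, Cd3e or Cd3g (full color) and without (pale), for WT (left) and PD-1-/- (right), with exact binomial 95% intervals. Klrb1b drops from 59.7% to 26.2% in WT and from 71.4% to 44.6% in PD-1-/- cells, and its intervals are apart in each panel.

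Eomes, a transcription factor of conventional NK cells, and Cxcr6, a chemokine receptor of tissue-resident lymphocytes, divide the cells further. Klrb1b was at a higher mean level in cells without Eomes, at 354.7 against 252.4 RPKM in WT and 551 against 319.04 RPKM in PD-1-/- cells, although its shares differed by -0.651 points (-11.1 to 9.88) and -8.74 points (-18.2 to 1.08). It was also at a higher mean level in cells with Cxcr6, at 528 against 271.4 RPKM in 28 WT cells and 567 against 385 RPKM in 77 PD-1-/- cells, with differences in share of -7.79 points (-25.5 to 10.8) and 11.1 points (-0.98 to 21.3). Because cells with Cxcr6 often held CD3 transcripts, these comparisons were repeated among cells without CD3 transcripts, a choice made after the data were seen. By Eomes, the share of Klrb1b then differed by -4.06 points (-15.3 to 7.62) in WT and -15.3 points (-25.02 to -4.67) in PD-1-/- cells. By Cxcr6, Klrb1b was found in 40 of the 44 PD-1-/- cells with Cxcr6, or 90.9%, against 67.8% of those without, a difference of 23.1 points (9.82 to 31.4), and the mean was 798 against 409 RPKM. In WT only 10 such cells were left, of which 8 had Klrb1b, with a mean of 1108 against 301.98 RPKM and a difference of 21.1 points (-10.4 to 36.5). Clec2i was found more often in PD-1-/- cells with Eomes, by 10.9 points (1.28 to 20.1). In WT cells the difference was 5.10 points (-5.12 to 14.8). Without cells with CD3 transcripts the PD-1-/- difference was 8.44 points and its interval spanned 0 (-2.58 to 18.8). Klrb1c differed by Eomes by 6.68 points (2.37 to 12.5) in WT and 2.29 points (-1.42 to 6.73) in PD-1-/- cells. The WT value was 4.72 points (1.37 to 10.6) without cells with CD3 transcripts. By Cxcr6 Klrb1c differed by -11.3 points (-28.5 to -2.35) in WT, but by 1.75 points (-26.0 to 4.04) without cells with CD3 transcripts. How many of all genes differ by Eomes or Cxcr6 was not counted.

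The signalling partners ranged from adaptors found in nearly every cell to enzymes found in few. Fcer1g was found in 100% of the WT and 99.7% of the PD-1-/- cells at mean RPKM of 2773 and 2614, and Tyrobp, encoding the adaptor DAP12, in 98.1% and 94.3% at 4231 and 3412 RPKM. Lck, encoding the kinase recruited by the CxCP site shown above, was found in 91.1% and 89.9% at 686 and 684 RPKM. Ptpn6, encoding the phosphatase that the ITIM of Klrb1b recruits, was found in 57.2% and 55.7% at 264.3 and 303.5 RPKM, Cd247 in 56.1% and 55.2%, and Zap70 in 60.8% and 67.5%. Syk was found in 25.3% and 25.7% at 19.4 and 20.3 RPKM, and the mean of Ptpn11 was 12.9 and 9.33 RPKM. None of the 8 partners was 2-fold higher or lower. The exact intervals of the WT and PD-1-/- shares overlapped for all 8, Tyrobp included, although the difference for Tyrobp was -3.79 points (-6.84 to -0.987).

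The genes whose levels over the 726 cells were most like those of a member were sought among 3997 genes found in at least 20% of cells, by Spearman's rho of log2(RPKM + 1). All values were low, and the cells share plates, depth and sort, so they are descriptions and no finding. The highest were 0.26 for Klrb1c with Klrd1, 0.24 with Ncr1 and 0.24 with Gzma, all genes of NK cells. For Klrb1b the highest were 0.20 with Klrc1, encoding the inhibitory receptor NKG2A, 0.20 with Serinc3 and 0.19 with Id2. These values pool both plates, and the study listed Klrb1b and all of these genes as higher in PD-1-/- cells. Within WT and PD-1-/- cells, rho was 0.14 and 0.24 for Klrc1, 0.12 and 0.19 for Serinc3, and 0.17 and 0.18 for Id2. For Klrb1f they were 0.20 with Itgax, 0.17 with Lsp1 and 0.16 with Myo1f, and for Clec2i 0.18 with Rpl3, 0.18 with Xcl1 and 0.17 with Tiprl. Klrb1a reached 0.15 with Actb, 0.14 with Ccnd2 and 0.14 with Pfn1, and Clec2d 0.13 with Jund, 0.12 with Gorasp2 and 0.12 with Dennd2d. Between members the highest was 0.13, for Klrb1b with Klrb1f.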

How the data were processed

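The authors sorted single cells into wells, fewer cells than there were wells, made SMART-Seq2 libraries and deposited RPKM values per gene, 1 table per plate. The submitters' processing notes name TopHat, Cufflinks and the builds mm9 and mm10 without their roles. The members and gene lists were chosen with earlier results of these data known. Cells were kept and shares, mean RPKM and log2 ratios of mean RPKM + 1 were computed with Python 3.11.15 (numpy, pandas, scipy). A gene counted as found above 0 RPKM. Low RPKM values are multiples of what 1 read is worth, which gave back whole reads: 97.3% of 725620 values below 60 reads were whole within 0.0003 of their size, over 10162 genes. For Klrb1f and Clec2i, 53.3% and 58.0% were whole, so their thinned values are approximate. Thinning drew from each cell 100000 reads and left out 31 WT and 14 PD-1-/- shallower cells. The scripts were tested on simulated data. No pair of wells held identical values. No count test was run, since each genotype is 1 pooled sample. Named genes were the members, their families, the partners, the 3 genes of highest rho per member, and markers.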

Additional observations from a re-analysis of the deposited data

Results flagged for a closer look

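The 42 wells outside the limits of 1000 to 3500 genes also held the members, and this is why they are listed. Klrb1c was above 0 in 76.2% of them (60.5 to 87.9%), Klrb1f in 69.05% (52.9 to 82.4%), Klrb1a in 45.2%, Klrb1b in 45.2%, Clec2i in 45.2% (each 29.8 to 61.3%) and Clec2d in 16.7% (6.97 to 31.4%). A count of 0 in these wells would, by a floor of 3 wells, allow up to 7.14% of wells with a read. Of the 30 wells with more than 3500 genes, 28 had Klrb1c, 28 had Klrb1f, 19 had Clec2i and 7 had Clec2d, whereas of the 12 wells with fewer than 1000 genes 4 had Klrb1c, 1 had Klrb1f and none had Klrb1b or either ligand. That well with Klrb1f was 1 of the 4 wells in the last 2 columns of row P, none of which had another member.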

How the results depend on the processing

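No paired analysis was possible because each genotype is a single pooled sample and no result comes from a test, and for the same reason no replicate could be left out. All wells, a limit of 10 RPKM, removal of cells with CD3 transcripts, removal of rows A and B, each part of the plate (rows A to H and I to P) and thinning left the 6 differences in share within their own intervals, and that of Klrb1b ranged from 9.02 to 13.01 points. Those of Klrb1c (-1.13 to 1.82 points) and Klrb1f (-9.89 to 2.15 points) changed sign, as did the log2 ratios of Clec2d (-0.07 to 0.83) and Klrb1c (-0.01 to 0.12), none of which was called over all kept cells. The log2 ratio of Klrb1b ranged from 0.49 to 0.58 with pseudocounts of 0.1 and 10, scaling to equal sums and these subsets. Genes past 2-fold numbered 567 higher and 883 lower with and without the limit on low values, which follows from the pseudocount of 1. Without cells with CD3 transcripts, chosen after the data were seen, the difference of Klrb1b by Cxcr6 moved from -7.79 to 21.1 points in WT and from 11.1 to 23.1 points in PD-1-/- cells. Of the single shares, 7 moved beyond their interval and 77 did not. The interval of Klrb1f in rows I to P was clear of 0, at -9.89 points. So were those of Clec2d by Klrb1b in WT at 10 RPKM or more (6.02 points) and in PD-1-/- without cells with CD3 transcripts (-10.3 points). Over all wells, so were those of Clec2i by Klrb1f in PD-1-/- (10.8 points) and of Klrb1b and Klrb1f by Klrb1a in WT (12.2 and 10.8 points). Without cells with CD3 transcripts, those of Klrb1b by Eomes (-15.3 points) and by Cxcr6 (23.1 points) in PD-1-/- were also clear of 0. That of Klrb1f by Klrb1b in PD-1-/- without cells with CD3 transcripts spanned 0 (9.08 points). The causes were not tested. In cells with Clec2d, the median number of recovered reads of this gene was 15 in WT and 16 in PD-1-/-, the lowest of the 6 members.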

Other observations

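Cells with at least 2 of the 5 cycling markers were few, 12 in WT and 22 in PD-1-/-. Klrb1b was above 0 in 33.3% of the cycling WT cells (9.92 to 65.1%) against 54.3% of the others, and in 81.8% of the cycling PD-1-/- cells (59.7 to 94.8%) against 64.2%. Clec2i was above 0 in 8.33% of the cycling WT cells (0.211 to 38.5%), which is 1 cell, against 36.2% of the others, and in 36.4% of the cycling PD-1-/- cells (17.2 to 59.3%) against 31.98%. Median depth in the cycling cells was 156389 reads in WT and 319626 in PD-1-/-, and its part in these values was not tested.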
